A study of Mus musculus with 14 samples.

Results

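The genes described here are 9 that mark early neural tissue, taken as a fixed list from the 36047 genes of the deposited tables and read in all 14 libraries: Sox1, Sox3, Sox21, Pax3, Pax6, Pax7, Nkx6-1, Six3 and Nes. All 9 were found in both tables. The first 8 encode transcription factors, while Nes encodes nestin, an intermediate filament protein of dividing neural precursors, so the working name of neural progenitor transcription factors holds for all but Nes. RNA was sequenced from mouse embryoid bodies, which are clusters of embryonic stem cells left to differentiate in shaken suspension, here in a serum medium meant to favour mesoderm. A control line called iHA-Foxk1 and a Foxk1 knockout (KO) line, which lacks a forkhead transcription factor by its label, were sampled on days 3, 5 and 10, and day 10 has a further group, Foxk1 KO with IWR1, a small molecule that blocks Wnt/beta-catenin signalling by stabilising Axin. The control titles carry the name iHA-Foxk1 and the letters ND, not interpreted here, at days 3 and 5 and only the word control at day 10, where the protocol names the iHA-Foxk1 line. No treatment is named for the control and KO groups, and the sources used here give no dose or timing for IWR1. Each of the 7 groups has 2 libraries.

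Sox1, Sox2 and Sox3 form the SoxB1 family, which keeps neural precursors undifferentiated, and Sox21, of the related SoxB2 family, is a repressor that acts against them. Along the back-to-belly axis of the neural tube, Pax3 and Pax7 mark the dorsal part, Pax6 the intermediate part and Nkx6-1 the ventral part, and Six3 marks the anterior forebrain and eye field. Wnt signals favour dorsal and posterior identity and Sonic hedgehog favours ventral identity. Several of these genes are also used elsewhere: Pax3 and Pax7 in the dermomyotome and neural crest, Pax6 and Nkx6-1 in the pancreas, Pax6 and Six3 in the lens, Sox3 in the epiblast, and Nes in endothelial and muscle precursors. In bulk RNA, fewer cells of a type and less RNA per cell cannot be told apart.

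Since each genotype is represented by 1 line, effects of the Foxk1 deletion and other differences between the lines cannot be told apart. Foxk1 itself was 81.4 ± 6.97 CPM (counts scaled to a common library size; mean ± SD, n = 2) in control and 16.3 ± 0.209 CPM in KO at day 3 and 134 ± 0.812 CPM against 35.9 ± 3.26 CPM at day 5. At day 10 it was 72.5 ± 10.7 CPM in control, 56.6 ± 20.9 CPM in the libraries labelled Foxk1 KO (adjusted p = 0.722) and 39.7 ± 18.7 CPM with IWR1, so the label is not borne out by the Foxk1 level there and those libraries are called labelled KO throughout. The sources used here do not say which part of the gene was deleted. Library totals ran from 10574194 to 11621032 counts at days 3 and 5 and from 34466708 to 52747273 at day 10, so 3 counts in a library were worth 0.254 to 0.298 CPM and 0.0621 to 0.0827 CPM. The day 10 table was deposited and normalised apart from the other, so levels set across the tables are descriptions only. No pair of replicates agreed within sampling noise, but the pairs differed widely. Their chi-square per degree of freedom was 1.86 in day 3 control, 1.87 in day 3 KO, 3.89 in day 5 control and 20.5 in day 5 KO. At day 10 it was 52.1 in control, 161 in the libraries labelled KO and 150 with IWR1. Each fit shares 1 estimate of the spread between its groups, so day 5 KO is judged partly on the tighter day 3 pairs.

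The genes lie on 9 different chromosomes of the GRCm38 (mm10) assembly. By the GENCODE vM21 annotation, Sox1 spans chr8:12395295-12400126 on the plus strand, Sox3 chrX:60891366-60893430 on the minus strand, Sox21 chr14:118233232-118237030 on the minus strand and Pax3 chr1:78101267-78197134 on the minus strand. Pax6 spans chr2:105668900-105697364 on the plus strand, Pax7 chr4:139737062-139833528 and Nkx6-1 chr5:101658139-101664996 on the minus strand, Six3 chr17:85613608-85629302 and Nes chr3:87971078-87980451 on the plus strand. Pax6, Six3 and Sox21 overlap transcripts on the opposite strand (Pax6os1, Six3os1 and Gm28528, and Gm4675) that have no row in the tables. The sources used here do not say whether counting used strand, so reads from such partners cannot be told apart.

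Promoter sequences show what these genes share at their starts. RefSeq windows of 300 bases on GRCm38.p6, from 250 bases before the transcript start to 50 after it, were matched for 7 of the 9 genes, with a pair of windows for Pax6, and not for Sox3 and Pax3. The ratio of observed to expected CpG in the 8 windows ran from 0.581 at Pax7 to 1.18 at Nkx6-1, against a median of 0.384 over 32851 windows of all genes, of which 37.3% reached the lowest of these values. Printed here, up to 30 bases after the start, are the windows whose RefSeq start lies within 50 bases of the GENCODE gene start. They belong to Sox21 and Pax6, which were called in both directions at day 10, and to Nes, which was not, and capitals mark each CpG:
Sox21, chr14:118237001-118237280, minus strand: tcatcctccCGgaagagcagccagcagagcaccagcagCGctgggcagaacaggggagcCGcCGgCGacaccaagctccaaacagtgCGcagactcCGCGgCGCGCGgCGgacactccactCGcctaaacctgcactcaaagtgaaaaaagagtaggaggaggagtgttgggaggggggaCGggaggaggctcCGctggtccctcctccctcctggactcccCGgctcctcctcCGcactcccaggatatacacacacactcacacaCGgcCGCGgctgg
Pax6, chr2:105668646-105668925, plus strand: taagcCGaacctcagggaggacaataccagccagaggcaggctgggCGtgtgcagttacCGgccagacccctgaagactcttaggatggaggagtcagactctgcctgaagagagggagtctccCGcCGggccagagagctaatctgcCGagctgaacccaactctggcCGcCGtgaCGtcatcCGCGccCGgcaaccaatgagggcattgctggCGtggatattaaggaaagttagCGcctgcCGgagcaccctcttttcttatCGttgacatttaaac
Nes, chr3:87970843-87971122, plus strand: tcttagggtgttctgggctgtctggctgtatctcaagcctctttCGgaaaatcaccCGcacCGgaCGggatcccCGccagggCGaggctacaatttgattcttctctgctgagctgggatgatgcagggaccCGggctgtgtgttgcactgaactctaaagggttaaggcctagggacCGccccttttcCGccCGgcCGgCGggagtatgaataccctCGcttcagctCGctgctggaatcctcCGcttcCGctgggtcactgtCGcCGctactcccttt
In these runs Sox21 holds 20 CpG, Nes 18 and Pax6 16. The word CCAAT, searched on both strands, was found 54 bases before the Pax6 start, 237 before the Sox1 start and 3 times at Six3, at 150, 131 and 86 bases before its start, so that 3 of the 8 windows held it, as did 37.4% of all windows. The octamer ATGCAAAT, bound by POU factors, was found in 1 window, 19 bases into Sox1, and in 1.74% of all windows. These positions count from the RefSeq starts, which for Sox1 and Six3 lie more than 50 bases from the GENCODE starts given above. CTTTGAT, a TCF/LEF word, GTAAACA, a forkhead word, and ACAATG, a Sox word, were in 0 of the 8 windows and in 3.73%, 3.65% and 12.6% of all. These words were chosen after the data were seen, and a match or its absence describes only the letters of the window.

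Day 3 compared the lines at the stage when the control bodies expressed primitive streak genes. The SoxB1 genes Sox1 and Sox3, together with Pax6 and Nes, were higher in KO, and Pax7 was lower. Of the 7 genes that passed the filter on low counts, 4 were called higher and 1 lower at an adjusted p under 0.05 in edgeR's quasi-likelihood test. Over all 14430 genes tested, 32.9% were called, 16% higher and 16.9% lower. The median log2 fold change of the 7 was 0.86, against -0.01 for all genes, and Pax3 and Six3 did not pass the filter. A gene can pass it through 1 group alone. Sox1 and Pax6 passed only through day 3 KO, Pax7 only through day 3 control and Nkx6-1 only through day 5 KO. Calls of these genes are favoured by the filter in comparisons with those groups, so the counts and median are descriptions. Without control library 1, 3 of the 7 were called.

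Sox1, among the earliest markers of committed neuroectoderm, was at 0.088 and 0.176 CPM in the control libraries, which is 1 and 2 counts, and at 3.98 and 4.82 CPM in the KO libraries, which is 45 and 57 counts. The groups did not overlap, and the ratio of summed counts was 33.4 (95% exact interval 11.1 to 165, counting error only, adjusted p = 0.00127). Sox3 was at 3.7 and 3.52 CPM in control and 14.4 and 13.7 CPM in KO, again without overlap, a log2 fold change of 1.96 ± 0.34 (SE, adjusted p = 0.00218). Pax6, a regulator of cortical, spinal and eye precursors, was near the floor in control at 0.088 and 0.352 CPM and at 1.41 and 1.86 CPM in KO, a log2 difference of 2.83 ± 0.64 (adjusted p = 0.0086). That call is uncertain: it was not made with DESeq2 (adjusted p = 0.0841), without control library 1 (2.18, adjusted p = 0.0703) or without KO library 2 (2.62, adjusted p = 0.0616).

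Nes was well covered by counts at day 3, at 161 CPM in each control library and 258 and 261 CPM in KO. Its log2 fold change was 0.68 ± 0.13 (adjusted p = 0.00639), with an adjusted p of 0.0534 and 0.0544 when control library 1 or 2 was left out. Pax7 went the other way, with 1.41 and 1.85 CPM in control, from 16 and 21 counts, and 0.0884 and 0 CPM in KO, from 1 count in all. The groups did not overlap, and the ratio of summed counts was 0.0265 (0.000654 to 0.157, adjusted p = 0.00385). Pax3, its close relative in the neural tube, had 0 and 3 counts in control and 3 and 4 in KO.

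Sox21 and Nkx6-1 were not called at day 3. Sox21 was at 0.528 and 0.792 CPM in control and 1.15 and 1.27 CPM in KO, a log2 difference of 0.86 ± 0.64 (adjusted p = 0.334), although the libraries did not overlap. Nkx6-1 was at 0.528 CPM in each control library and at 0.177 and 0.169 CPM, 2 counts each, in KO (log2 difference -1.55 ± 0.67, adjusted p = 0.107). Six3, with 2 counts over the control libraries and 2 over the KO libraries, was at the floor of detection in both lines.

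At day 5 the lines were compared again. Nkx6-1, Sox21 and Nes were higher in KO, and Sox1, Sox3, Pax6 and Pax7 were not called. The count was 3 higher and 0 lower of 7 tested, a share near the background, since 43.5% of all genes were called, 21.9% higher and 21.7% lower. The median log2 fold change was 2.27 over the 7, or 2.12 without Pax7, which had 0 counts in control and 3 in KO and therefore no fold, against 0.01 for all genes.

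Nkx6-1, a homeodomain repressor of ventral neural and pancreatic beta cell precursors, was at 0.297 and 0.199 CPM in the day 5 control libraries and at 3.88 and 5.93 CPM in KO. The difference of 4.25 ± 0.50 on the log2 scale (adjusted p = 0.000165) was called with any 1 of the 4 libraries left out. Nkx6-1 passed the filter on low counts only through these KO libraries. Nes was at 19.6 and 14.3 CPM in control and 75.1 and 58.9 CPM in KO, a log2 fold change of 1.98 ± 0.16 (adjusted p = 0.000102), also called in each of those 4 fits. Sox21 was at 0.793 and 0.894 CPM in control and 2.08 and 6.11 CPM in KO, 2.27 ± 0.56 on the log2 scale (adjusted p = 0.0096). The Sox21 libraries did not overlap, but the call was lost without control library 1 (2.18, adjusted p = 0.0712), control library 2 (2.35, 0.0567) or KO library 2 (1.28, 0.0611), and kept without KO library 1 (2.84, 3.67e-06).

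Sox1 was at 0 and 0.199 CPM in control and 0.0903 and 0.611 CPM in KO at day 5, at most 7 counts in a library, and the groups overlapped (ratio of summed counts 3.58, 0.714 to 34.6, adjusted p = 0.266). Sox3 was at 1.39 and 0.298 CPM in control and 1.35 and 1.83 CPM in KO, overlapping, with a log2 difference of 0.91 ± 0.52 (adjusted p = 0.182) that was 2.38 (adjusted p = 0.0145) without control library 1. Pax6 had 1 count in each control library and 0.451 and 0.698 CPM in KO (ratio of summed counts 5.81, 1.32 to 53.1, adjusted p = 0.0533), and was called on library totals (adjusted p = 0.0465) and without KO library 1 (0.0406). Pax3 and Six3, again not tested, had 23 and 20 counts over the KO libraries against 1 and 3 over the control libraries, ratios of 20.6 (3.34 to 847) and 5.96 (1.77 to 31.3).

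The day 5 KO libraries differed from each other. KO library 2 was the higher for 8 of the 9 genes, all but Nes, while 48.5% of all genes tested were higher in it. Pax3 was at 0.181 CPM in library 1 and 1.83 CPM in library 2, and Six3 at 0.271 and 1.48 CPM. The 10 epiblast genes, which include Pou5f1, Fgf5 and Dnmt3b, summed to 494 CPM in library 1 and 1020 CPM in library 2, and the 10 endothelial genes, which include Kdr, Pecam1 and Cdh5, to 607 and 224 CPM. The part of these cell types in the result was not tested.

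**Figure D1:**
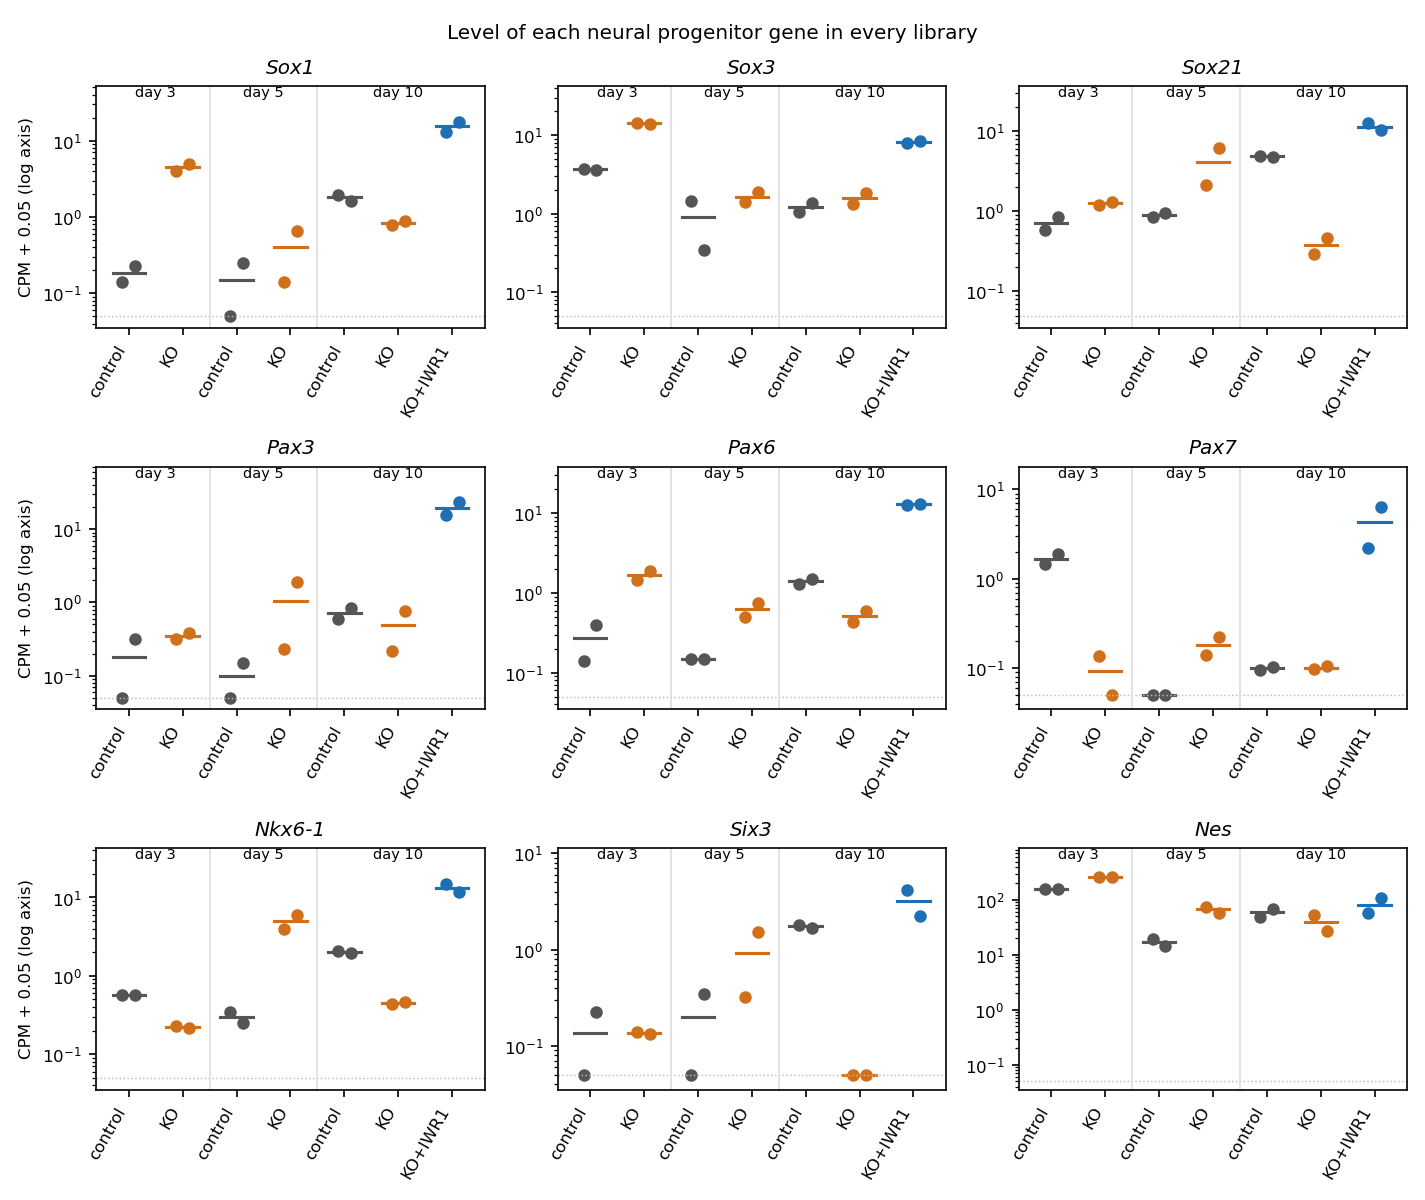
Level of each of the 9 genes in CPM plus 0.05 (log axis) in every library, with 1 point a library and a bar at the group mean, by day and group; the dotted line marks 0 CPM and the day 10 KO groups are those labelled KO. Sox1 reached 3.98 and 4.82 CPM in day 3 KO and 13 and 17.6 CPM with IWR1 at day 10, and stayed under 2 CPM in the other groups.

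Between day 3 and day 5 the lines were each compared with themselves, over the same 8 libraries as above. In control, 0 of the 7 genes tested were called higher and 3 lower, against 30.6% and 30.2% of all genes (60.8% in all). Sox3 fell by 2.08 ± 0.46 on the log2 scale (adjusted p = 0.00352), Nes fell by 3.25 ± 0.16 (adjusted p = 3.64e-06), and Pax7, with 37 counts at day 3 and 0 at day 5, was at least 10.9-fold lower when day 5 is set to the limit of 3 counts over both libraries (adjusted p = 0.0011). In KO, 2 were called higher and 4 lower, where 53.8% of all genes were called, 28.3% higher and 25.5% lower.

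In KO, the SoxB1 genes Sox1 and Sox3 and the filament gene Nes fell, while Sox1 in control had 3 counts at day 3 and 2 at day 5 (adjusted p = 0.833). Sox1 fell by 3.59 ± 0.66 (adjusted p = 0.00147), Sox3 by 3.13 ± 0.38 (adjusted p = 0.000121) and Nes by 1.95 ± 0.13 (adjusted p = 2.9e-05) on the log2 scale. Nkx6-1, in contrast, rose by 4.74 ± 0.51 (adjusted p = 6.21e-05) in KO, where control had 12 counts at day 3 and 5 at day 5 (log2 difference -1.06 ± 0.65, adjusted p = 0.188). Sox21 was 1.75 ± 0.52 higher (adjusted p = 0.0179) and Pax6 fell by 1.49 ± 0.55 (adjusted p = 0.0429) on the log2 scale in KO. The Sox21 and Pax6 calls were each made in 1 of 4 fits that left out a library, with adjusted p up to 0.219 for Sox21 (0.75, without day 5 KO library 2) and 0.189 for Pax6 (-1.28, without day 3 KO library 2), and neither was made with DESeq2 (0.0572 and 0.3).

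The difference between the KO effects of the 2 days was tested directly as an interaction. The KO effect on Nkx6-1 was 5.80 ± 0.85 log2 units higher at day 5 than at day 3 (adjusted p = 0.00128) and that on Nes 1.30 ± 0.20 higher (adjusted p = 0.00439), and each was called in all 8 fits that left out a library. Pax7 gave 8.59 ± 2.16 (adjusted p = 0.0216), a value that depends on the prior count because day 5 control had 0 counts. It was called in 3 of the 8 fits, with adjusted p of 0.0514 and 0.0619 without day 3 control library 1 or 2, 0.0547 without day 3 KO library 2, 0.0532 without day 5 control library 1 and 0.0579 without day 5 KO library 2. Of all genes, 24.2% were called in this test, 13.4% higher and 10.8% lower. The Sox1 (adjusted p = 0.246), Sox3 (0.271), Sox21 (0.278) and Pax6 (0.876) effects were not shown to differ between the days.

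**Figure D2:**
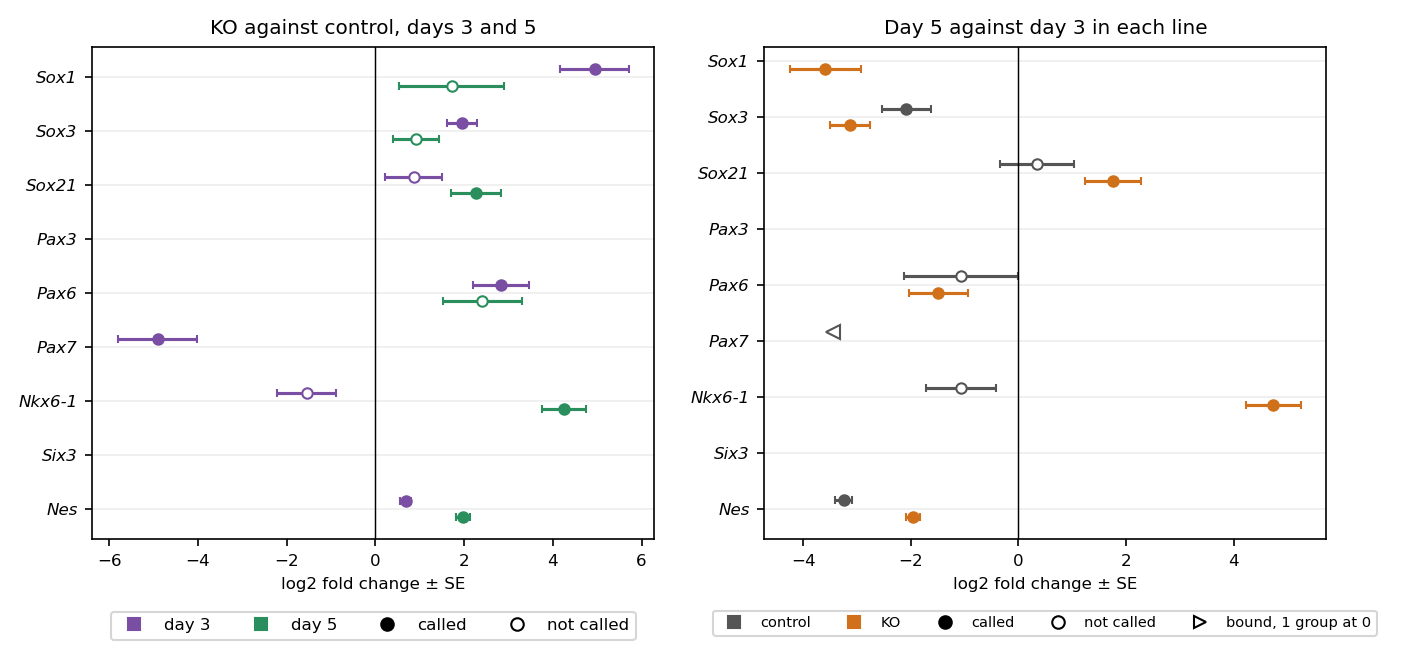
Log2 fold change with its standard error for KO against control at days 3 and 5 (left) and for day 5 against day 3 in each line (right). Filled points passed an adjusted p of 0.05 and open circles did not, a triangle is a bound against 3 counts, and genes not tested or with at most 3 counts in each group are left out. Nkx6-1 sits at 4.25 at day 5 and at -1.55 at day 3, where it was not called.

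At day 10, when all 9 genes had counts in each control library, the ventral, anterior and SoxB2 genes were lower in the libraries labelled KO. Sox21, Nkx6-1, Six3 and Pax6 were called lower, 4 of 9 tested, and 0 were called higher. Over all 17022 genes, 5.27% were called, 1.92% higher and 3.35% lower. The median of the 9 was -1.15 on the log2 scale and that of all genes 0.02. Only 1 of the 9 was called without control library 1, and 2 without control library 2 or without labelled KO library 2.

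Sox21 was at 4.87 and 4.77 CPM in control and 0.243 and 0.41 CPM in the libraries labelled KO. This fall by 3.88 ± 0.35 on the log2 scale (adjusted p = 0.00634) was called with any 1 of the 4 libraries left out. Six3 was at 1.77 and 1.64 CPM in control, from 76 and 62 counts, and had 0 counts in either library labelled KO, so it was at least 44.4-fold lower, with those libraries set to 3 counts together (adjusted p = 0.0123, and 0.0568 without control library 1). Nkx6-1 was at 2.01 and 1.91 CPM in control and 0.388 and 0.41 CPM in the libraries labelled KO and fell by 2.29 ± 0.30 (adjusted p = 0.0134). Its fold kept its size but the call did not hold without control library 1 (adjusted p = 0.105), control library 2 (0.077) or labelled KO library 2 (0.0643).

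Pax6 was at 1.26 and 1.43 CPM in control and 0.388 and 0.547 CPM in the libraries labelled KO, without overlap, a fall by 1.52 ± 0.31 (adjusted p = 0.043). The call was lost without control library 1 (adjusted p = 0.21) or 2 (0.248), without labelled KO library 1 (0.122) or 2 (0.101), and in a fit of the 4 libraries compared (0.0905). Sox1 was at 1.91 and 1.59 CPM in control and 0.728 and 0.847 CPM in the libraries labelled KO, also without overlap, a log2 difference of -1.15 ± 0.31 that was not called (adjusted p = 0.0872, and 0.0267 with DESeq2). The other SoxB1 gene, Sox3, was at 1.0 and 1.32 CPM in control and 1.26 and 1.78 CPM in the libraries labelled KO, overlapping (0.38 ± 0.32, adjusted p = 0.618).

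The dorsal genes and Nes overlapped between control and the libraries labelled KO. Pax3 was at 0.536 and 0.794 CPM against 0.17 and 0.711 CPM (adjusted p = 0.703), and Pax7 had 2 counts in each of the 4 libraries (adjusted p = 0.989). Nes was at 49.1 and 69.2 CPM in control and 53.6 and 27.3 CPM in the libraries labelled KO (log2 difference -0.55 ± 0.42, adjusted p = 0.576).

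With IWR1, 8 of the 9 genes were higher than in the libraries labelled KO, all but Nes, and 0 were lower. The share of all genes called was 13.9%, with 5.77% higher and 8.08% lower. The 9 genes had a median log2 fold change of 5.03, against -0.01 for all genes. Each of the 8 calls was made in all 4 fits that left out a library. The libraries labelled KO are the same ones as in the comparison with control, so the pair of comparisons is not independent.

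Among the Sox genes, Sox1 was at 13 and 17.6 CPM with IWR1, from 0.728 and 0.847 CPM, 4.28 ± 0.32 higher on the log2 scale (adjusted p = 0.00538). Sox3 was at 7.8 and 8.35 CPM, 2.41 ± 0.32 higher (adjusted p = 0.0117), the smallest of the 8 called differences. Sox21 was at 12.6 and 10.2 CPM, 5.13 ± 0.36 higher (adjusted p = 0.00538). No IWR1 library overlapped a library labelled KO for any of these.

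Among the patterning genes, dorsal Pax3 was at 15.7 and 23.7 CPM with IWR1, 5.50 ± 0.63 higher (adjusted p = 0.009), and Pax7 at 2.19 and 6.31 CPM, from 106 and 229 counts, 6.28 ± 0.76 higher (adjusted p = 0.0104). Pax7 passed the day 10 filter on low counts only through the IWR1 libraries. Pax6 was at 12.8 and 13.1 CPM, 4.79 ± 0.32 higher (adjusted p = 0.00517), with the closest agreement between libraries. Ventral Nkx6-1 was at 14.6 and 11.6 CPM, 5.03 ± 0.32 higher (adjusted p = 0.00517). Genes of the dorsal, intermediate and ventral neural tube were therefore all called higher, as was anterior Six3, at 4.1 and 2.18 CPM, at least 84.9-fold higher, with the libraries labelled KO set to 3 counts together (adjusted p = 0.00853). Nes was at 57.9 and 107 CPM with IWR1, above both libraries labelled KO, but the spread was wide (log2 difference 1.03 ± 0.43, adjusted p = 0.145).

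The IWR1 libraries differed in which of the 9 genes was the higher. Library 1 had the higher Sox21, Nkx6-1 and Six3, and library 2 the higher Sox1, Sox3, Pax3, Pax6, Pax7 and Nes, with Pax7 at 2.19 against 6.31 CPM. Levels were set between genes per kilobase of exon, with all annotated exons of a gene merged. Nes was the highest with IWR1 at 12.8 ± 5.38 CPM per kb (mean ± SD, n = 2). Nkx6-1 (4.17 ± 0.68), Sox3 (3.91 ± 0.187), Pax3 (3.19 ± 0.914), Sox1 (3.17 ± 0.665) and Sox21 (3.01 ± 0.451 CPM per kb) came next. Among these 5, the libraries of Sox21 lay below those of Nkx6-1 and Sox3, those of Sox1 below those of Sox3 and Nkx6-1, and Pax3 overlapped each of the other 4. Pax6 (1.11 ± 0.0238), Pax7 (0.726 ± 0.497) and Six3 (0.576 ± 0.25 CPM per kb) were the lowest. The place of Pax6 depends on its merged exon length of 11.694 kb, against 3.138 kb for Nkx6-1. In CPM these genes were at 12.9 ± 0.279 and 13.1 ± 2.13.

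The IWR1 libraries were also set against the day 10 control, a comparison that shares its libraries with those above. Of the 9 genes, 7 were called higher and 0 lower, where 9.12% of all genes were called, 2.99% higher and 6.13% lower. Pax7 was 6.33 ± 0.76, Pax3 4.89 ± 0.60, Pax6 3.27 ± 0.29, Sox1 3.12 ± 0.30, Sox3 2.79 ± 0.33 and Nkx6-1 2.74 ± 0.27 higher on the log2 scale, with adjusted p from 0.00457 to 0.00827. Without control library 1 only Sox1, Pax6 and Nkx6-1 were called among the 9, and the adjusted p was 0.0647 for Sox3, 0.0591 for Pax3 and 0.0536 for Pax7.

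Sox21 was 1.25 ± 0.29 higher than in control (adjusted p = 0.0475), a call lost without control library 1 (0.251) or 2 (0.268), without IWR1 library 1 (0.16) and on library totals (0.0615). Six3, at 4.1 and 2.18 CPM with IWR1 against 1.77 and 1.64 CPM in control (0.88 ± 0.43, adjusted p = 0.218), and Nes (0.48 ± 0.42, adjusted p = 0.451) were not called.

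**Figure D3:**
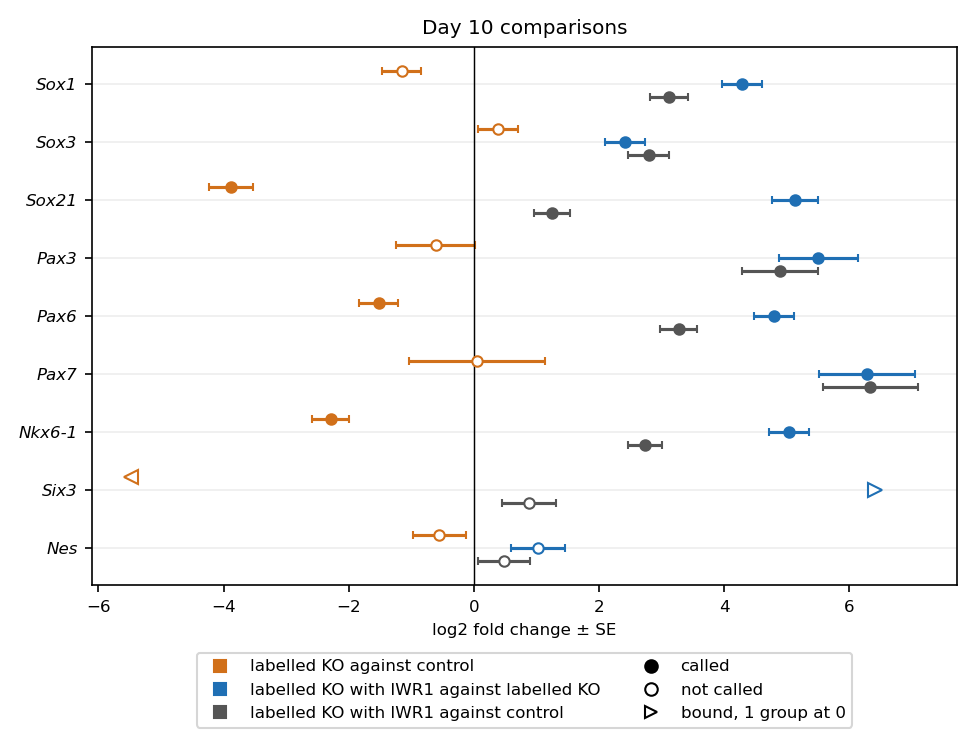
Log2 fold change with its standard error for the 3 day 10 comparisons. Filled points passed an adjusted p of 0.05, open circles did not, and triangles are bounds for Six3, which had 0 counts in the libraries labelled KO. The IWR1 differences against the libraries labelled KO run from 2.41 for Sox3 to 6.28 for Pax7 among the genes called with a fold.

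Across the 7 groups, Sox1, Sox21, Pax3, Pax6, Pax7, Nkx6-1 and Six3 had their highest mean with IWR1, and Sox3 and Nes in day 3 KO. For Sox1 the order was IWR1, day 3 KO, day 10 control, day 10 labelled KO and then the remaining groups, whose libraries overlapped one another. Nkx6-1 had IWR1 first, then day 5 KO and day 10 control, and Sox21 had IWR1 first, then day 10 control and day 5 KO, which overlapped. Sox3 ranked day 3 KO, IWR1 and day 3 control, with the other groups overlapping their neighbours down to day 5 control. Nes had its lowest levels in day 5 control, and its IWR1, day 5 KO and day 10 control libraries overlapped.

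Over the 6 libraries of day 10 the 9 genes had similar profiles, with Pearson r of log2(CPM + 1) from 0.53 to 1.0 over 36 pairs and a median of 0.88. Over the 8 libraries of days 3 and 5 the 21 pairs among the 7 genes tested ran from -0.36 to 0.95, with a median of 0.06. The points share their groups and libraries, so these values are descriptions. Among protein-coding genes with a mean of at least 5 CPM, the profiles most like Sox1 at day 10 were those of Wnt1 (r = 0.9968), Tagln3 (0.9965) and Hoxb2 (0.9962), of 11292 compared. Pax3 had Tubb3 (0.9964) and Gpm6b (0.9962) among its nearest profiles, while Pax7 was nearest to Zic1 (0.9956), Psmf1 (0.9938) and Pou3f2 (0.9924), and Six3 to Car14 (0.9958), Col9a1 (0.9953) and Otx2 (0.9933), each over 6 libraries. For Sox21 they were Shd (0.9984), Adgrv1 (0.997) and Tspan15 (0.9942), and for Nkx6-1 Cntnap2 (0.9969), Tsga10 (0.9965) and Bysl (0.9955).

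At days 3 and 5 the nearest profiles, over 8 libraries, were other genes: Sall2 (r = 0.9912) for Sox1, Mal2 (0.9904) for Sox3, Frat2 (0.9863) for Sox21, Wrb (0.9848) for Pax6, Vwa8 (0.9937) for Pax7, Frat1 (0.9919) for Nkx6-1 and Lrp11 (0.9975) for Nes. The number of genes at r of 0.95 or more ranged from 7 for Sox21 to 489 for Nes, and at day 10 from 62 for Pax7 to 323 for Nkx6-1.

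The wider neural programme was read from a list of 40 other neural progenitor regulators. Counts of this list and the later ones stand beside the shares of all genes called. Those shares were 32.9% at day 3, 43.5% at day 5, 5.27% for labelled KO against control at day 10 and 13.9% for IWR1 against labelled KO. At day 3, 22 of the 40 regulators were tested, 4 higher in KO and 9 lower, with a median of -0.52. The 4 were Pou3f1, Msi1, Olig1 and Olig2, and the oligodendrocyte and motor neuron factors Olig1 and Olig2 were at 60.9 ± 1.10 and 37.7 ± 1.35 CPM in KO with 0 counts in control, at least 461-fold and 286-fold higher. Sox2, the remaining SoxB1 gene, was at 78.0 ± 2.57 CPM in KO and 54.1 ± 0.744 CPM in control (0.53 ± 0.22, adjusted p = 0.112). Those called lower included Zic2, Zic5, Otx1, Emx2 and Fabp7, so the list did not move one way.

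At day 5, 11 of the 22 were higher in KO and 5 lower, with a median of 1.49. Sox2 was at 35.6 ± 13.5 CPM in KO and 4.61 ± 0.483 CPM in control (2.94 ± 0.30, adjusted p = 0.000465). At day 10, 1 of 35 was higher and 9 lower in the libraries labelled KO (median -0.97, or -0.96 with genes at 0 in a group set at their bound), and Sox2 was at 13.6 ± 2.67 CPM against 28.9 ± 0.693 CPM in control (-1.09 ± 0.22, adjusted p = 0.0416). With IWR1, 28 of 35 were higher and 0 lower than in the libraries labelled KO (median 3.22): Sox2 was at 53.7 ± 5.89 CPM (adjusted p = 0.00853), the dorsal factor Zic1 at 20.9 ± 11.9 against 1.43 ± 0.139 CPM (adjusted p = 0.0102) and the Notch target Hes5 at 11.8 ± 2.84 against 0.0926 ± 0.0623 CPM (adjusted p = 0.00811).

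Neuronal differentiation genes, 20 on the list, were called higher in 4 and lower in 1 of 12 tested at day 3 and higher in 6 and lower in 0 at day 5. The neuronal tubulin Tubb3 was at 41.6 ± 2.13 CPM in KO and 9.73 ± 1.18 CPM in control at day 3 (adjusted p = 0.00254) and at 26.9 ± 11.9 against 4.27 ± 0.709 CPM at day 5 (adjusted p = 0.00122). Elavl3 was higher in KO at day 3 (3.15 ± 0.37 on the log2 scale, adjusted p = 0.000226) and not called at day 5 (0.80 ± 0.87, 0.484). Dcx was not called at day 3 (-0.70 ± 0.30, adjusted p = 0.109) or day 5 (-0.16 ± 0.64, 0.882). At day 10, 0 of 19 were higher and 2 lower in the libraries labelled KO, and 18 of 19 were higher with IWR1 (median 3.51), where Tubb3 was at 128 ± 38.4 CPM against 7.59 ± 0.44 CPM (4.08 ± 0.28, adjusted p = 0.00538). The summed level of the list was 60.2 to 61.3 CPM in the libraries labelled KO and 417 to 538 CPM with IWR1.

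Of 18 patterning signals and their targets, 15 were tested at day 3, 8 of them lower in KO and 0 higher. Those lower included the BMP antagonist Chrd at 4.02 ± 0.068 against 25.4 ± 0.00138 CPM (adjusted p = 0.0313). The ligand Bmp4 was lower too, at 2.33 ± 0.414 against 14.4 ± 0.063 CPM (adjusted p = 0.0072). Shh, the ventralising signal, was at 25.9 ± 3.22 CPM in day 10 control and 3.14 ± 1.66 CPM in the libraries labelled KO (-3.04 ± 0.46, adjusted p = 0.02), in the same libraries in which Nkx6-1 was lower. At day 5, where Nkx6-1 was higher in KO, Shh was not called, at 6.3 ± 7.63 against 0.794 ± 0.279 CPM (adjusted p = 0.0975). The part of Shh in the Nkx6-1 differences was not tested. With IWR1 Shh was at 16.3 ± 6.29 CPM (adjusted p = 0.0231) and 11 of 17 genes of the list were higher and 0 lower than in the libraries labelled KO, including the BMP antagonist Nog at 4.20 ± 1.15 against 0.672 ± 0.216 CPM (adjusted p = 0.018). Wnt1 and Wnt3a, ligands of the dorsal neural tube, were among them.

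Other cell types in which these genes are used were read from their own markers. Neural crest genes, 14 on the list, were called higher in 8 and lower in 1 of 13 tested with IWR1 (median 1.99). Sox10, a defining crest and glial factor, had 3 counts in the libraries labelled KO and was at 11.6 ± 6.61 CPM with IWR1 (ratio of summed counts 283, 96.6 to 1380, adjusted p = 0.00665), and the crest and surface ectoderm factor Tfap2a was at 14 ± 2.89 against 1.09 ± 0.271 CPM (adjusted p = 0.00675). The summed level of the list was 237 to 269 CPM in the libraries labelled KO and 270 to 340 CPM with IWR1. Since Pax3 and Pax7 are crest genes too, these values stand beside their rise, and the part of crest cells in it was not tested.

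Dermomyotome and muscle genes, 14 on the list, were called higher in 3 and lower in 1 of 11 tested with IWR1 (median 1.31). Meox1, a somite factor, was at 23.8 ± 5.88 against 3.15 ± 0.00711 CPM (adjusted p = 0.0112), while the myogenic factor Myf5 had 2 counts over the IWR1 libraries and 1 over those labelled KO, and Lbx1 was at 0.534 ± 0.258 against 0.102 ± 0.0278 CPM (adjusted p = 0.0883). The summed level was 149 to 170 CPM with IWR1 and 213 to 222 CPM in the libraries labelled KO. Within these sums Des, the 1 gene called lower, was at 69.1 ± 15.0 against 173 ± 11.9 CPM (adjusted p = 0.0182). Of the 11 log2 differences, 9 were above 0. The part of somite cells in the level of Pax3 and Pax7 was not tested.

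Pancreas and foregut genes, which bear on Nkx6-1 and Pax6, were called lower in 3 and higher in 0 of 8 tested in the libraries labelled KO at day 10 (median -2.33). The endoderm and floor plate factor Foxa2 was at 2.68 ± 0.847 against 18 ± 0.175 CPM in control (adjusted p = 0.0123), Sox17 was at 2.41 ± 0.978 against 9.77 ± 1.49 CPM (adjusted p = 0.0399), and Pdx1, the defining pancreatic factor, was at 0.0864 ± 0.0836 against 1.68 ± 0.0274 CPM (adjusted p = 0.06). The summed level of the 12 genes was 11.0 to 19.7 CPM in the libraries labelled KO and 84.3 to 88.7 CPM in control, and 26.3 to 40.8 CPM with IWR1. At day 5, where Nkx6-1 was higher in KO, 1 of 5 was called higher, Sox17 at 47.9 ± 20.7 against 14.5 ± 0.325 CPM (adjusted p = 0.00667), the summed level was 126 to 159 CPM against 68.3 to 73.9 CPM, and Pdx1 had 2 counts in KO and 5 in control. The part of endoderm in the Nkx6-1 and Pax6 differences was not tested.

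Lens and placode genes, which bear on Six3 and Pax6, were called lower in 2 and higher in 0 of 9 tested in the libraries labelled KO and higher in 4 and lower in 1 with IWR1. The lens factor Foxe3 had 0 counts in control and in the libraries labelled KO and 4 over the IWR1 libraries, and the lens crystallin Cryaa 1 count over the IWR1 libraries. The summed level was 113 CPM in each control library, 74.6 to 98.6 CPM in the libraries labelled KO and 53.5 to 61.2 CPM with IWR1, of which Cryab, a crystallin also made in muscle, was at 10.3 ± 1.63 CPM with IWR1 against 70.6 ± 19.7 CPM (adjusted p = 0.00729).

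Epiblast genes, which bear on Sox3 and the other early genes, were called higher in 1 and lower in 3 of 10 at day 3, with sums of 3730 to 3760 CPM in control and 3600 to 3680 CPM in KO. The day 3 counts of this list and of the endothelial list below are near the share of all genes, 32.9% called and 16.9% lower. At day 5, 9 of 10 were higher in KO and 0 lower (median 2.94). Pou5f1 was at 123 ± 58.0 against 19.6 ± 1.65 CPM (adjusted p = 0.00624) and the summed level 494 to 1020 CPM against 186 to 201 CPM, beside the higher Nkx6-1, Sox21 and Nes, and its part in those was not tested. With IWR1, 1 was higher and 1 lower, and Pou5f1 was at 66.5 ± 46.1 against 59.8 ± 2.51 CPM (adjusted p = 0.833).

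Endothelial genes, which bear on Nes, were called in neither direction at day 5 (0 of 9) and lower in 2 and higher in 0 of 9 at day 3, with a median of 0.92 and 7 of 9 log2 differences above 0, where Kdr was at 5.07 ± 0.835 against 105 ± 4.73 CPM (adjusted p = 0.00255) and Nes was higher. With IWR1, 1 of 10 was higher and 1 lower (median 0.25): Etv2, an early endothelial and blood factor named after its values were seen, was at 3.76 ± 3.26 against 0.458 ± 0.202 CPM (adjusted p = 0.0434) and Kdr at 43.5 ± 6.33 against 141 ± 36.9 CPM (adjusted p = 0.0179). Pecam1 and Cdh5 were not called (adjusted p = 0.796 and 0.853). Of the mesoderm genes at day 3, 11 of 12 were lower in KO and 0 higher, with a median of -5.11 on the log2 scale, or -4.54 with bounds, and a summed level of 213 to 257 CPM against 2150 to 2230 CPM in control. The streak factor T was at 65.8 ± 14.5 against 823 ± 37.6 CPM (adjusted p = 0.00374) in the same libraries in which Sox1, Sox3 and Pax6 were higher. At day 10, 1 of 11 was higher with IWR1 and 5 lower (median -1.03), and the 1 was T, at 16.7 ± 9.36 against 1.07 ± 1.07 CPM (adjusted p = 0.0316).

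**Figure D4:**
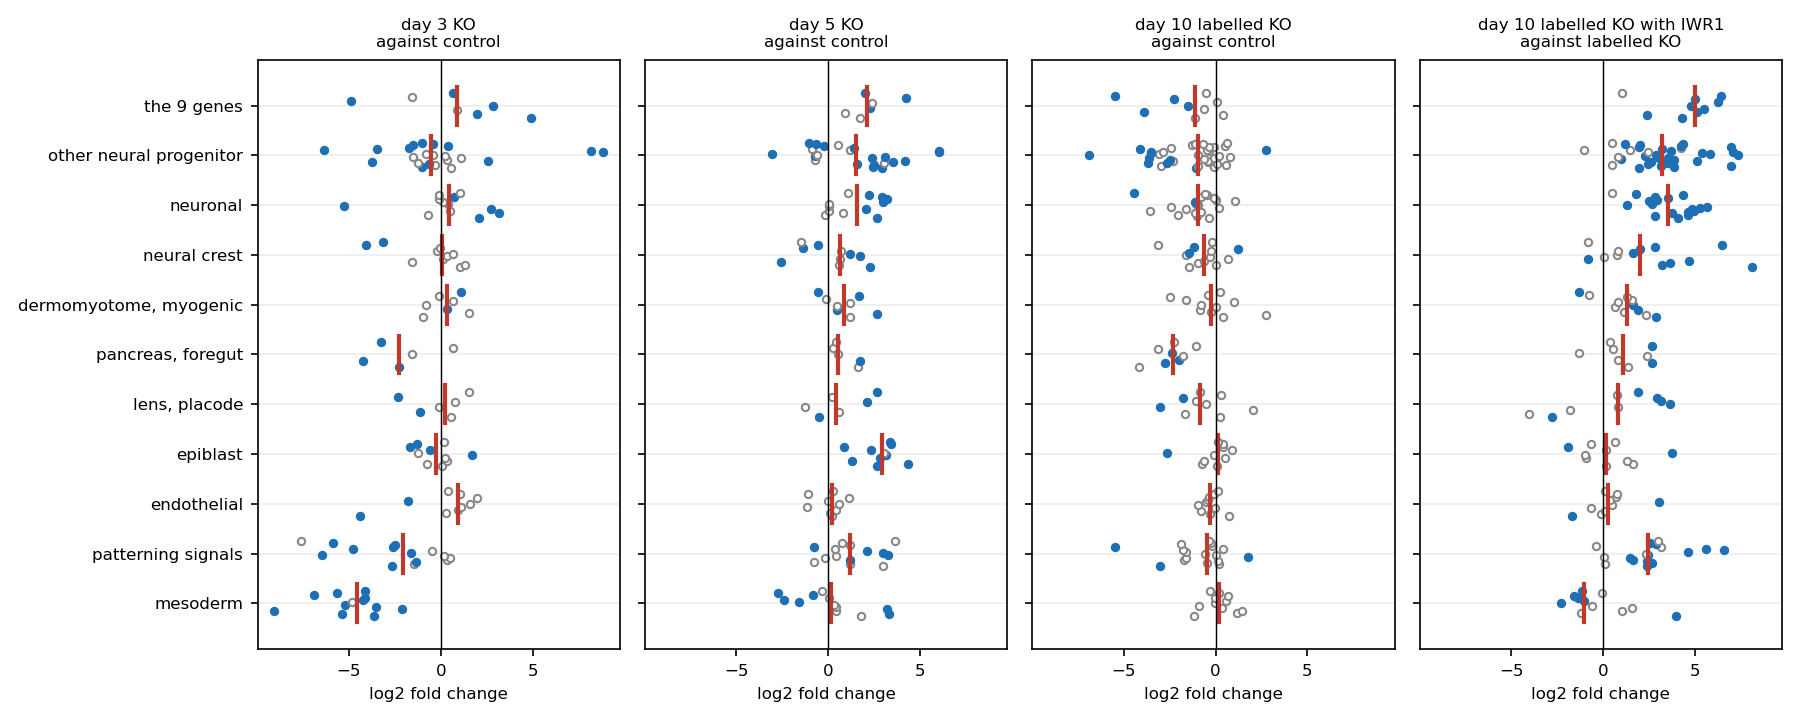
Log2 fold change of each tested gene of the 9 and of the 10 lists in 4 comparisons. Filled blue points passed an adjusted p of 0.05, open points did not, genes with 0 counts in a group are set at their bound, genes with at most 3 counts in each group are left out, and red bars are medians. With IWR1 the 9 genes have a median of 5.03, the other neural progenitor genes 3.22 and the neuronal genes 3.51, while mesoderm genes lie at -1.03.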

How the data were processed

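RNA sequencing libraries of 7 groups, 2 each, were deposited by the authors as a pair of tables of estimated counts per gene, made with kallisto 0.46.2 and the mm10 build per the submitters' processing notes. The values are whole numbers and were used as deposited. Symbols matched 35968 of 36047 identifiers; 79 did not match. Both tables were fitted separately in edgeR 4.0.16 (R 4.3.3; filterByExpr, TMM, robust quasi-likelihood F-test, two-sided, Benjamini-Hochberg over all genes tested, threshold 0.05): 8 libraries, 14430 genes and 4 residual degrees of freedom for days 3 and 5, and 6 libraries, 17022 genes and 3 for day 10. CPM are on TMM-scaled totals. The SE is the absolute log2 fold change over the square root of F. The fit was also run on simulated counts drawn with its own estimates of the spread. That run cannot check those estimates or a spread that differs between groups.

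The members, the 10 lists with 160 entries and the tests were chosen with earlier results of these data known, so lists get counts and medians only. Genes named are the 9, Foxk1, the first 3 of each list with Olig1 and Olig2, and the 3 nearest profiles of each of the 9; other listed genes named were chosen after their values were seen, and 1 gene that meets the rule is not reported here. No label says that replicates are separate cultures, so p-values cover only the spread of these samples, possibly a technical one. Alternatives were DESeq2 1.42.0, other scalings, no filter, the compared libraries alone, each library left out and a replicate block.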

Additional observations from a re-analysis of the deposited data

Results flagged for a closer look

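The difference between the KO effects of day 5 and day 3 was tested in edgeR as an interaction over 8 libraries. It passed an adjusted p of 0.05 for 3 of the 7 genes tested. Over all genes tested, 24.2% were called, 13.4% higher and 10.8% lower. The difference was 5.8 on the log2 scale for Nkx6-1, whose day 3 KO libraries had 2 counts each, and 1.3 for Nes. For Pax7 it was 8.59, where day 5 control had 0 counts and day 5 KO 3, so that the size depends on the prior count.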

How the results depend on the processing

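Of 667 values of the 9 genes recomputed under the alternatives, 603 kept their direction and side of the threshold, 42 lost the call, 10 gained it and 12 reversed, and 34 of 62 results did so under every alternative run. The reversed values were all of differences that were not called: without day 5 KO library 2 the day 5 Sox1 difference was -0.13, without labelled KO library 1 the day 10 Pax3 difference was 0.06, the day 10 Pax7 difference was -0.1 on library totals, -0.04 without control library 1 and -0.03 without labelled KO library 2, and without IWR1 library 2 Nes against control was -0.03. In control, day 5 against day 3, Sox1 reversed to 0.15 and 0.55 and Pax6 to 0.15 with a control library left out, as did the interaction for Sox1 (0.09), Sox3 (0.42) and Pax6 (0.23). Over the fits that left out a library, these differences ran from -0.13 to 5.03 for Sox1 at day 5, -1.94 to 0.06 for Pax3 and -0.04 to 0.13 for Pax7 at day 10, -0.03 to 0.85 for Nes, -3.68 to 0.55 for Sox1 and -1.72 to 0.15 for Pax6 in control, and -5.1 to 0.09 for Sox1, -1.76 to 0.42 for Sox3 and -1.64 to 0.23 for Pax6 in the interaction. The cause was not tested.

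Counts over all genes moved more. With DESeq2 they were 2991 at day 3 (4741 in edgeR), 2023 for the libraries labelled KO (897), 4308 for IWR1 against labelled KO (2358), 3456 against control (1553) and 2315 for the interaction (3496). Without a filter the day 10 counts were 1737, 3697 and 3093, and with only the compared libraries 7367 at day 3 and 900 for IWR1 against labelled KO. Leaving out a library gave 2566 to 2621 at day 3, 4088 to 7506 at day 5 (6281), 62 to 810 for labelled KO, 544 to 3103 and 284 to 2163 for IWR1 and 2073 to 5609 for the interaction. Of the 9 genes it left 3 to 5 called at day 3 (5), 2 to 4 at day 5 (3), 1 to 3 for labelled KO (4), 8 to 8 and 3 to 7 for IWR1 (8 and 7) and 2 to 4 for the interaction (3). The interaction uses all 8 libraries, so no fit of fewer groups was run. The DESeq2 interaction gave Pax7 no adjusted p.

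The replicate numbers pair nothing by the labels, and same-numbered deviations correlated from -0.0218 to 0.0501 at days 3 and 5 and, at day 10, at -0.297, 0.242 and -0.322. With the replicate block the day 10 counts were 1233 and 948 for IWR1, Pax6 (-1.53, adjusted p = 0.0838) lost its call in the libraries labelled KO and Sox21 (0.0978) its call against control, and it changed no other call of the 9 genes. With the labelled KO numbers crossed, added after the data were seen, they were 3257, 7268 and 7182. On library totals, without TMM, the median over all genes shifted by -0.16 for labelled KO against control and -0.12 for IWR1 against control, and the share of calls that were higher went from 50.2% to 62.1% at day 5, 36.5% to 22.2% for labelled KO, 41.7% to 54.4% for IWR1 against labelled KO and 55.3% to 66.5% for the interaction.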
